A study of Mus musculus with 4 samples.

Results

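The 8 genes described here encode the mouse shelterin proteins TRF1, TRF2, RAP1, TIN2, TPP1 and POT1a (Terf1, Terf2, Terf2ip, Tinf2, Acd and Pot1a), the catalytic subunit of telomerase (Tert) and the telomere helicase RTEL1 (Rtel1). They were taken by symbol from the platform annotation, with all of their 22 probe sets, and are 8 of 18193 genes on the array. RNA came from leukaemia cells sorted from mouse bone marrow, with 1 Affymetrix array per fraction and 4 fractions in all. Cells were gated on c-Kit and on NS-GFP, giving the fractions c-Kit+ GFP-high, c-Kit+ GFP-middle, c-Kit- GFP-middle and c-Kit- GFP-low, where the last word is the NS-GFP gate. All 4 shared the C57BL/6 background, the HoxA9 and Meis1 genes introduced into marrow to give a model of acute myeloid leukaemia, and the NS-GFP transgene, which expresses green fluorescent protein from a region of the promoter of nucleostemin (NS). The comparisons ask how transcription differed along a sort meant to order cells by nucleostemin promoter activity and by c-Kit, the stem cell factor receptor of immature blood cells. The sources used here do not give how many mice or leukaemias the cells came from, so each fraction counts as 1 sample.

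Telomeres end in TTAGGG repeats, and shelterin covers them so that they are not treated as DNA breaks. TRF1 and TRF2 bind the double-stranded repeats, RAP1 is carried by TRF2, and TIN2 joins TRF1 and TRF2 to TPP1, which holds POT1 on the single-stranded overhang and recruits telomerase. Telomerase extends the overhang with TERT and an RNA template, and RTEL1 unwinds the loop and the G-rich structures that telomeres form. Nucleostemin, the product of Gnl3 and the basis of the sort, is known to bind TRF1, which makes these genes of particular interest in this sort.

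Values are signals after quantile normalization of all 4 arrays, which gives each array the same distribution. Signals below 15.35, the 50th percentile, were set to this floor before ratios were taken. With 1 array per fraction no test or replicate error can be given, so the counts take genes that stood at least 2-fold apart, and no difference below was checked in a second sort. The only repeated measurement is that of genes with another probe set above the floor. From these, the SD of a log2 ratio taken from 1 probe set was 0.48 for c-Kit+ GFP-high over c-Kit- GFP-low, 0.37 for c-Kit+ GFP-middle over c-Kit- GFP-middle, 0.30 for c-Kit+ GFP-high over c-Kit+ GFP-middle and 0.36 for c-Kit- GFP-middle over c-Kit- GFP-low. Error between sorts is not in this SD. The comparisons share arrays, so their ratios are not independent of each other.

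The arrays stood apart in ways that touch every result below. The signal of Kit was 479 in c-Kit+ GFP-high, 690 in c-Kit+ GFP-middle, 26.4 in c-Kit- GFP-middle and 6.58, below the floor, in c-Kit- GFP-low. Of 14 myeloid and model markers, 12 or 13 were above the floor in each fraction, Meis1 being below it in all 4. Their levels differed, since of 13 measured 4 were at least 2-fold higher and 6 lower in c-Kit+ GFP-high over c-Kit- GFP-low, and 4 higher and 3 lower between the middle gates. Of all genes, 16.1% were higher and 13.7% lower between the ends, and 3.58% and 5.3% between the middle gates. Mpo, the granule enzyme myeloperoxidase of early myeloid cells, was 37.9-fold higher between the ends and 9.29-fold higher in c-Kit+ GFP-middle than in c-Kit- GFP-middle. Cd33, a myeloid surface receptor, had log2 ratios of -3.81 between the ends and -2.91 between the middle gates. Class II and dendritic cell markers had 8 of 8 above the floor in c-Kit- GFP-low and 3 in either c-Kit+ fraction, with summed signals of 785 in c-Kit+ GFP-high, 1004 in c-Kit+ GFP-middle, 1436 in c-Kit- GFP-middle and 4633 in c-Kit- GFP-low. B and plasma cell markers summed to 223, 228, 853 and 5840 in the same order, with Cd79a and Ms4a1 below the floor throughout. T and NK cell markers summed to 90.5, 42.2, 110 and 650, with Cd3d, Cd3e, Cd3g and Ncr1 below the floor in all 4 fractions. Erythroid (43.0 to 118) and stromal markers (96.0 to 109) stayed low. Single genes weighed heavily in some of these sums. Igha gave 609 of the B and plasma cell sum in c-Kit- GFP-middle and 4915 in c-Kit- GFP-low, while Cd79b had 98.9 to 163. Flt3 gave 602 of the class II and dendritic cell sum in c-Kit+ GFP-high and 1280 in c-Kit- GFP-low. For the Actb control, signal at the 3' end over that at the 5' end was 4.70 in c-Kit+ GFP-high, 3.98 in c-Kit+ GFP-middle, 3.28 in c-Kit- GFP-middle and 2.50 in c-Kit- GFP-low. For Gapdh that ratio had no such order, with 3.41 in c-Kit+ GFP-high, 3.10 in c-Kit+ GFP-middle, 3.91 in c-Kit- GFP-middle and 3.37 in c-Kit- GFP-low. The part of these differences in the telomere gene values was not tested, and in sorted bulk RNA a smaller share of cells and less RNA per cell cannot be told apart.

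Of the 22 probe sets, 12 were above the floor on all 4 arrays, 6 on some and 4 on none. Of the 8 genes, 7 had a probe set above it on every array. Tert alone had none above it on any array.

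**Figure D1:**
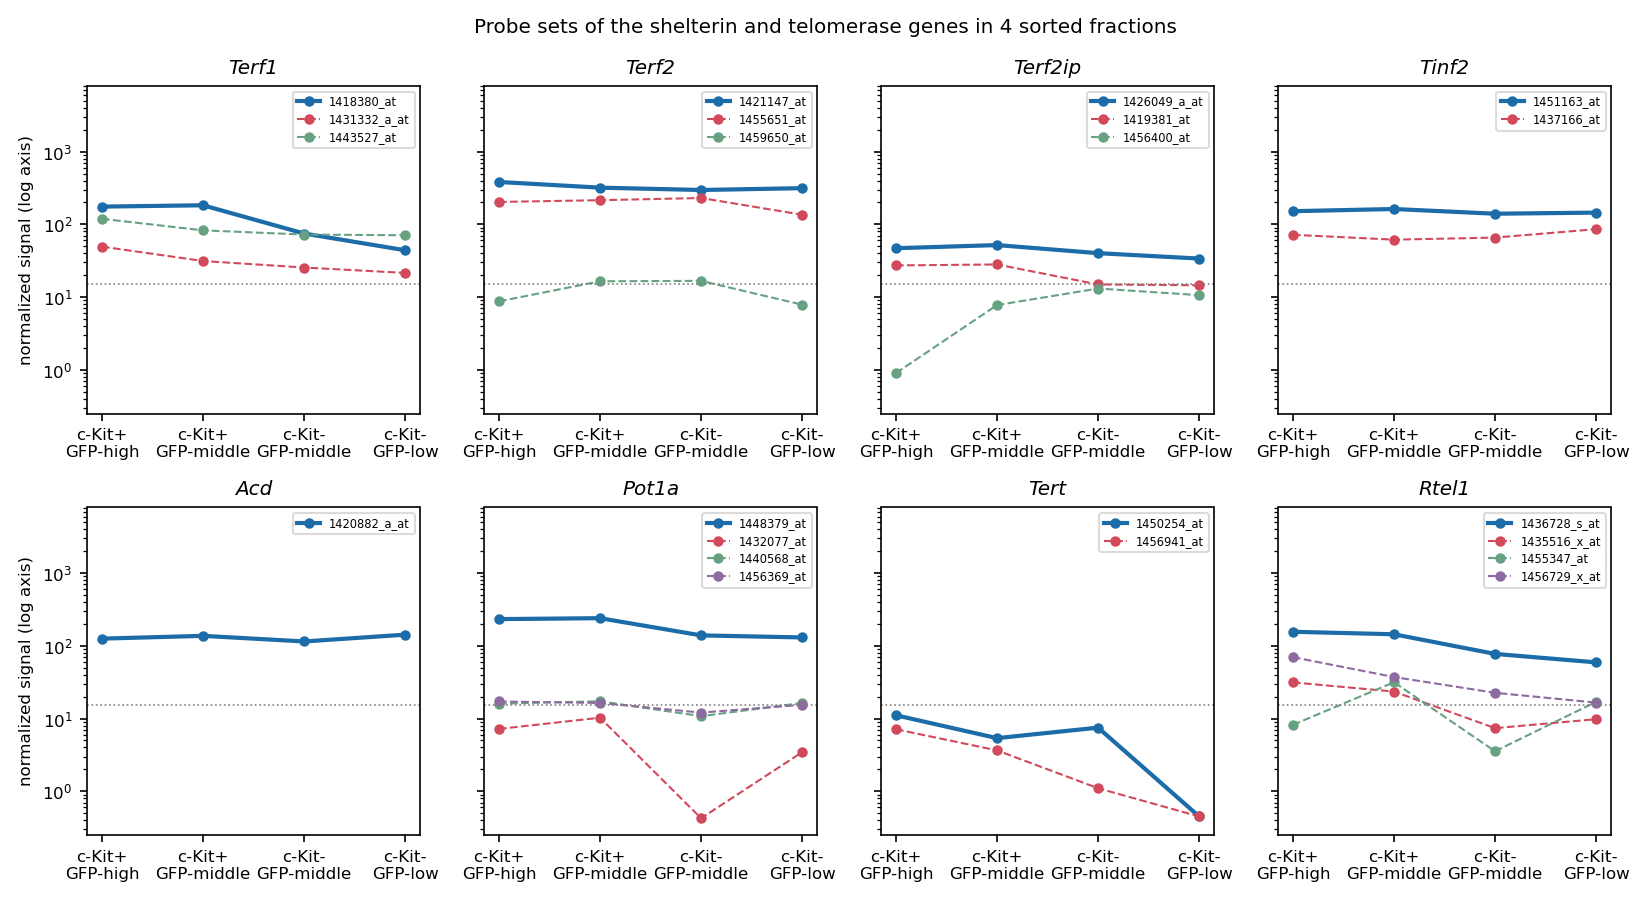
Normalized signal (log axis) of each probe set of the 8 genes in the 4 fractions, 1 array each. The thick line is the gene's brightest probe set, dashed lines are its other probe sets and the dotted line is the floor of 15.35. Terf1, Pot1a and Rtel1 lie higher in both c-Kit+ fractions by their brightest probe set, Tinf2 and Acd are nearly flat, and both Tert probe sets stay below the floor.

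The double-strand binding proteins were examined first. The brightest Terf1 probe set, 1418380_at, had signals of 175 in c-Kit+ GFP-high, 183 in c-Kit+ GFP-middle, 74.8 in c-Kit- GFP-middle and 44.0 in c-Kit- GFP-low. Both c-Kit+ fractions thus lay above both c-Kit- fractions. Terf1 was 3.98-fold higher in c-Kit+ GFP-high than in c-Kit- GFP-low (log2 ratio 1.99), and 3.78% of the 11261 genes measured in that comparison had a higher ratio. In steps, the log2 ratio was -0.06 for c-Kit+ GFP-high over c-Kit+ GFP-middle, 1.29 for c-Kit+ GFP-middle over c-Kit- GFP-middle and 0.76 for c-Kit- GFP-middle over c-Kit- GFP-low, so by this probe set most of the difference lay between the middle gates.

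Its other probe sets gave smaller ratios and another place for the step. Probe set 1431332_a_at had 49.4 in c-Kit+ GFP-high, 31.3 in c-Kit+ GFP-middle, 25.5 in c-Kit- GFP-middle and 21.5 in c-Kit- GFP-low (2.30-fold between the ends). Probe set 1443527_at had 119, 82.7, 72.4 and 70.8 in the same order (1.68-fold). In both, c-Kit+ GFP-high was the highest and the step from c-Kit+ GFP-middle to c-Kit+ GFP-high (log2 ratios 0.66 and 0.53) was larger than that between the middle gates (0.30 and 0.19). All 3 Terf1 probe sets were highest in a c-Kit+ fraction and, after quantile normalization, lowest in c-Kit- GFP-low. In the deposited signals 1431332_a_at had 23.2 in c-Kit- GFP-middle and 24.6 in c-Kit- GFP-low, and 1443527_at had 65.5 and 81.7, so for these c-Kit- GFP-middle was the lowest. With the mean of the 3 the log2 ratio was 1.32 between the ends and 0.59 between the middle gates, where Terf1 then no longer reached 2-fold. The positions of these probe sets on Terf1 transcripts are not stated in the labels or files.

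Terf2, whose product TRF2 protects the telomere end, differed little by its brightest probe set. This probe set, 1421147_at, had 383 in c-Kit+ GFP-high, 320 in c-Kit+ GFP-middle, 297 in c-Kit- GFP-middle and 315 in c-Kit- GFP-low. Its log2 ratio of 0.28 between the ends was smaller than the probe set SD. Probe set 1455651_at had 203, 215, 230 and 136 in the same order, and its log2 ratio of 0.58 between the ends was beyond that SD. By it c-Kit- GFP-low was the lowest and c-Kit- GFP-middle the highest. The probe sets therefore placed c-Kit- GFP-middle differently, with log2 ratios of -0.08 and 0.76 over c-Kit- GFP-low. The third, 1459650_at, reached 16.5 in c-Kit+ GFP-middle and 16.7 in c-Kit- GFP-middle and was below the floor in the other fractions.

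Terf2ip encodes RAP1, the partner of TRF2. Its brightest probe set, 1426049_a_at, had 46.9 in c-Kit+ GFP-high, 51.9 in c-Kit+ GFP-middle, 40.1 in c-Kit- GFP-middle and 33.8 in c-Kit- GFP-low. Its log2 ratio of 0.47 between the ends and 0.37 between the middle gates each just missed the probe set SD. With the deposited signals the ratio between the middle gates was beyond it (0.50), while that between the ends fell to 0.15. Between the ends it also fell to 0.18 with the second deposited table and 0.24 with trimmed mean scaling. With the mean of probe sets both ratios were beyond the SD (0.65 between the ends and 0.62 between the middle gates). By 1419381_at the c-Kit+ fractions had 27.2 (high) and 28.1 (middle), while c-Kit- GFP-middle (14.9) and c-Kit- GFP-low (14.5) were below the floor, which gives a difference of at least 1.77-fold in c-Kit+ GFP-high over c-Kit- GFP-low and at least 1.83-fold in c-Kit+ GFP-middle over c-Kit- GFP-middle. The third Terf2ip probe set, 1456400_at, was below the floor in every fraction.

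The bridging proteins were close to level across the sort. Tinf2, the gene of TIN2, had 152 in c-Kit+ GFP-high, 163 in c-Kit+ GFP-middle, 140 in c-Kit- GFP-middle and 145 in c-Kit- GFP-low by probe set 1451163_at, the highest 1.16-fold above the lowest. By 1437166_at it had 71.8, 61.6, 65.8 and 85.8, with c-Kit- GFP-low the highest. The sign of its log2 ratio between the ends (0.07 here) was negative with the deposited signals (-0.16), the second deposited table (-0.13), trimmed mean scaling (-0.06) and the mean of probe sets (-0.10), each within the probe set SD. Acd, the gene of TPP1, had 126 in c-Kit+ GFP-high, 137 in c-Kit+ GFP-middle, 115 in c-Kit- GFP-middle and 142 in c-Kit- GFP-low by its only probe set, 1420882_a_at. No fraction of Acd stood more than 1.24-fold from another, and its log2 ratio between the ends was -0.18.

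Pot1a encodes one of the 2 POT1 proteins of the mouse, which bind the single-stranded overhang. Probe set 1448379_at had 233 in c-Kit+ GFP-high, 240 in c-Kit+ GFP-middle, 139 in c-Kit- GFP-middle and 131 in c-Kit- GFP-low. The c-Kit+ fractions were level with each other, as were the c-Kit- fractions, and the difference lay between the middle gates (1.72-fold, log2 ratio 0.79). Between the ends it was 1.79-fold (0.84), short of 2-fold and beyond the probe set SD in both comparisons. Probe sets 1440568_at (10.8 to 17.3) and 1456369_at (12.1 to 17.2) lay around the floor and 1432077_at below it, so the mean over the 3 that were measured brought the log2 ratios down to 0.32 between the ends and 0.35 between the middle gates.

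The other mouse POT1 gene, Pot1b, which restrains 5' end resection at telomeres, had a signal of 5.38, below the floor, in c-Kit+ GFP-high, against 33.8 in c-Kit+ GFP-middle, 39.9 in c-Kit- GFP-middle and 52.4 in c-Kit- GFP-low. It was therefore at least 3.41-fold lower in c-Kit+ GFP-high than in c-Kit- GFP-low, and at least 2.20-fold lower than in c-Kit+ GFP-middle. This rests on 1 probe set with signals near the floor. The mouse paralogs thus stood in opposite order at the ends of the sort.

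Rtel1, the helicase gene, had 156 in c-Kit+ GFP-high, 144 in c-Kit+ GFP-middle, 77.5 in c-Kit- GFP-middle and 59.2 in c-Kit- GFP-low by its brightest probe set, 1436728_s_at. Both c-Kit+ fractions were above both c-Kit- fractions. It was 2.64-fold higher in c-Kit+ GFP-high than in c-Kit- GFP-low (log2 ratio 1.40) and 1.86-fold higher in c-Kit+ GFP-middle than in c-Kit- GFP-middle (0.90), where 4.80% of genes had a higher ratio. Probe set 1456729_x_at had 69.8, 37.2, 22.6 and 16.6 from c-Kit+ GFP-high to c-Kit- GFP-low, a 4.21-fold difference between the ends. By 1435516_x_at the c-Kit+ fractions had 31.4 (high) and 23.5 (middle), and c-Kit- GFP-middle (7.38) and c-Kit- GFP-low (9.80) were below the floor.

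The fourth Rtel1 probe set went its own way except between the middle gates. 1455347_at had 8.20, below the floor, in c-Kit+ GFP-high, 31.6 in c-Kit+ GFP-middle, 3.55, below the floor, in c-Kit- GFP-middle and 17.0 in c-Kit- GFP-low. It is the only Rtel1 probe set without the _s or _x suffix, which marks probe sets that can match more than 1 transcript or gene. Between the middle gates it was at least 2.06-fold higher in c-Kit+ GFP-middle (log2 ratio 1.04), the direction of the other Rtel1 probe sets. If Rtel1 is read from 1455347_at alone, the log2 ratio between the ends turns to -0.15. The higher Rtel1 level at the upper end of the sort thus comes from probe sets that may not be specific to Rtel1.

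The promoters of Rtel1 and Pot1a are printed because both genes were higher in c-Kit+ GFP-middle than in c-Kit- GFP-middle, and that of Tert because it was not measured above the floor. Each is 300 bases of the RefSeq sequence (GRCm38.p6), 250 before to 50 after the transcript start, and capitals mark GGGCGG, the GC box, read on either strand. The windows are chr2:181319474-181319773 (plus strand) for Rtel1, chr6:25809169-25809468 (minus strand) for Pot1a and chr13:73626661-73626960 (plus strand) for Tert.
Rtel1: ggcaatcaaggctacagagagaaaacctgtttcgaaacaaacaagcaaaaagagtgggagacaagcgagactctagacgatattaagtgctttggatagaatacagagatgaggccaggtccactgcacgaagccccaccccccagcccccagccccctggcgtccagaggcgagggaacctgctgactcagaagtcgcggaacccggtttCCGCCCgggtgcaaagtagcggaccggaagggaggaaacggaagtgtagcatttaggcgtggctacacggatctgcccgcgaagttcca
Pot1a: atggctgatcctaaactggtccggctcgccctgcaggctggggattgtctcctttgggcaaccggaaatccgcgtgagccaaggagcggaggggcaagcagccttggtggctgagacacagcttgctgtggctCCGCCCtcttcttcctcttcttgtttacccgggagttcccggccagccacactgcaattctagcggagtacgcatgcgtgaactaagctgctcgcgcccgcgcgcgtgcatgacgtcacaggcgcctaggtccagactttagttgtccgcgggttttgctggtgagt
Tert: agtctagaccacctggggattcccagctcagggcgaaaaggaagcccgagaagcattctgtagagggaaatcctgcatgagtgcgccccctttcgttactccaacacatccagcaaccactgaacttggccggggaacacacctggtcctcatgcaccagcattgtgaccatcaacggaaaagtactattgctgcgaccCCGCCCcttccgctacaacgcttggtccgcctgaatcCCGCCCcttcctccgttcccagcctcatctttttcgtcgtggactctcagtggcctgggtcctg
The Rtel1 window holds 1 GC box whose first base lies 39 bases before the start, Pot1a 1 at 117 bases before it, and Tert 2 at 51 and 14 bases before it. Of the 7 genes with an entry in the table, 5 hold a GC box, namely these 3, Terf2 and Terf2ip, beside 35.7% of all 32851 promoters. The E-box CACGTG, bound by Myc, is in none of the 7 (7.15% of all promoters), nor is TTAGGG (10.6%). Of the E2F-type motifs TTTCCCGC, TTTCGCGC, TTTGCCGC and TTTGGCGC, held by 2.26% of all promoters, Terf2ip has the first, and the other members have none. All motifs were searched on both strands, no capital run covers more than 1 motif, and a match is a run of letters and not a shown binding site. Terf1 has no entry in the table.

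Tert encodes the telomerase reverse transcriptase. Its probe set 1450254_at had 11.1 in c-Kit+ GFP-high, 5.38 in c-Kit+ GFP-middle, 7.50 in c-Kit- GFP-middle and 0.45 in c-Kit- GFP-low, and 1456941_at had 7.12, 3.65, 1.10 and 0.45. Both were highest in c-Kit+ GFP-high and lowest in c-Kit- GFP-low, but every value was below the floor, so no fold is given. A signal below the floor does not show that a gene is silent, since the only probe set of Xrcc5, which encodes the Ku80 protein of DNA end joining found in all cells, was also below it throughout (0.65 to 14.3). The RNA template of telomerase, Terc, was not analysed here.

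Set out by comparison, 2 of the 7 genes measured (Terf1 and Rtel1) had 2-fold or more signal in c-Kit+ GFP-high over c-Kit- GFP-low and 0 were 2-fold lower, where 16.1% of all genes were higher and 13.7% lower (29.8% in either direction). The median log2 ratio of the 7 was 0.47, and that of all genes 0.09. With c-Kit- GFP-middle as the lower end the same count held, with Terf1 2.34-fold and Rtel1 2.02-fold higher, with 4.9% of all genes higher and 6.5% lower. Between the middle gates 1 gene, Terf1, was 2-fold higher in c-Kit+ GFP-middle than in c-Kit- GFP-middle (3.58% of all genes higher, 5.3% lower, 8.89% in either direction). By their brightest probe sets all 7 had a log2 ratio above 0 there, as had 5742 of all 11051 genes measured (medians 0.37 and 0.02). With the mean of probe sets the ratio of Terf2 was -0.004. Other probe sets gave -0.10 (1455651_at) and -0.02 (1459650_at) for Terf2 and -0.09 (1437166_at) for Tinf2. By their brightest probe sets Terf1, Rtel1 and Pot1a exceeded the probe set SD, Pot1a not with the mean of probe sets (0.35). Terf2ip was beyond it with that mean (0.62) and by 1419381_at alone (at least 0.87). The SD is a low bar, since 23.6% of genes had a ratio above the 0.37 of Terf2ip, just below it.

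Within c-Kit+ cells, none of the 7 differed by 2-fold between c-Kit+ GFP-high and c-Kit+ GFP-middle, where 1.01% of genes were higher and 1.01% lower. By the brightest probe sets all 7 log2 ratios, from -0.14 for Terf2ip to 0.26 for Terf2, were within the probe set SD. With the mean of probe sets Terf1 was beyond it (0.37), and so were the other Terf1 probe sets given above. Rtel1 was beyond it by 1456729_x_at (0.91) and 1435516_x_at (0.42). In the opposite direction, Rtel1 by 1455347_at was at least 2.06-fold lower in c-Kit+ GFP-high (log2 ratio -1.04). Within c-Kit- cells, again none reached 2-fold between c-Kit- GFP-middle and c-Kit- GFP-low (6.65% of genes higher, 5.47% lower). There Terf1 (0.76) and Rtel1 (0.39) exceeded the probe set SD by their brightest probe sets, while Acd had -0.31. By other probe sets Terf2 (0.76, 1455651_at) and Rtel1 (0.45, 1456729_x_at) were beyond it, and on the lower side Tinf2 (-0.38, 1437166_at). With the mean of probe sets Terf1 (0.35) and Rtel1 (0.23) were within it. Rtel1 was also within it with the deposited signals (0.02), the second deposited table (0.25) and trimmed mean scaling (0.30). With the deposited signals Acd (-0.64), Terf2 (-0.40) and Tinf2 (-0.38) were beyond it on the lower side, where the median of all genes was -0.25. Acd was also beyond it with the second deposited table (-0.41).

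**Figure D2:**
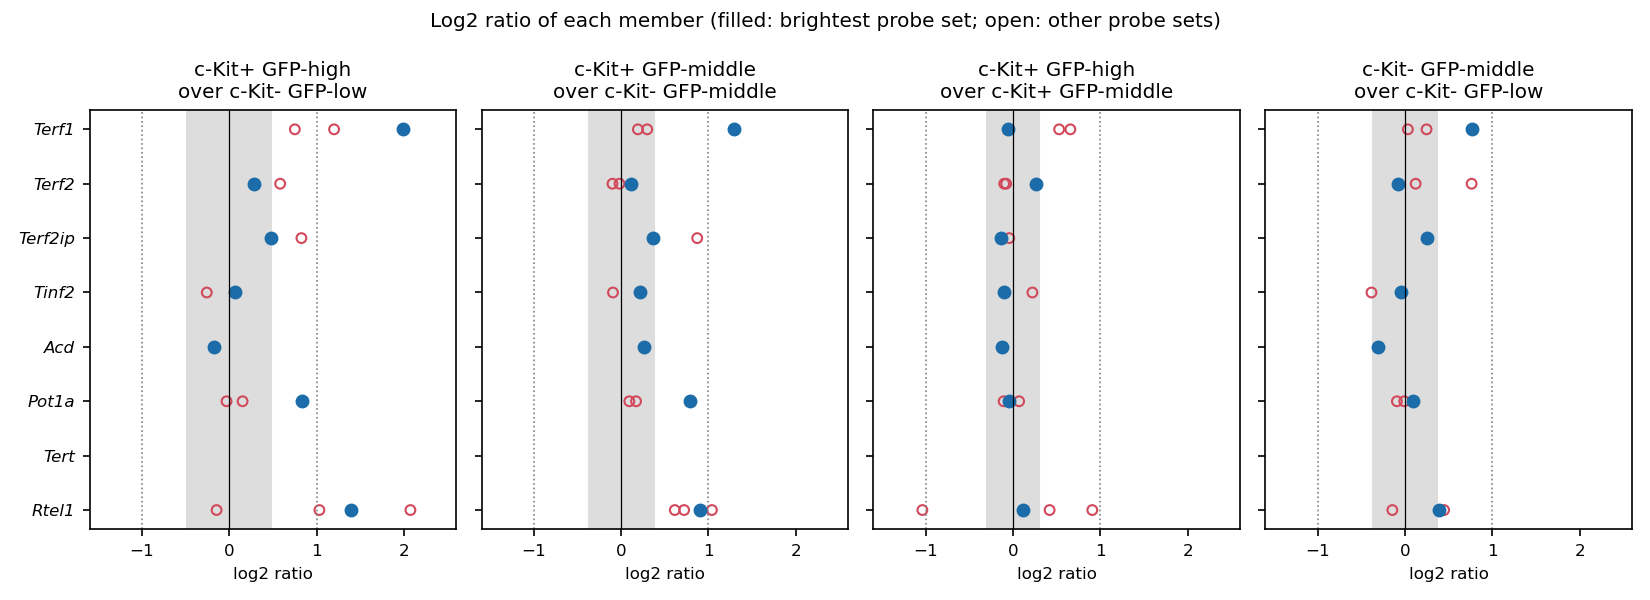
Log2 ratio of each gene in the 4 comparisons. Filled points are brightest probe sets, open points other probe sets with a value above the floor (a value below it was set to the floor), the grey band is the probe set SD and dotted lines mark 2-fold. Terf1 (1.99) and Rtel1 (1.40) pass 2-fold between the ends and Terf1 (1.29) between the middle gates, with probe sets of the same gene lying well apart.

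The pattern of Terf1 over the fractions was closest to that of Vmn2r84, Ergic1 and Ppif, and that of Rtel1 to Eif1ad, Nrp and Gpc1. Closeness was the Euclidean distance between log2 signals centred on their mean, over 4 fractions and 8828 genes, and was 0.05 to 0.10 for Terf1 and 0.04 to 0.05 for Rtel1. Over so few points many genes come close, and the ranking is a description. Ergic1, for example, had 732 in c-Kit+ GFP-high, 712 in c-Kit+ GFP-middle, 293 in c-Kit- GFP-middle and 178 in c-Kit- GFP-low. No other member had a 2-fold range over the fractions with a probe set above the floor on all arrays.

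The other genes of telomere upkeep were taken from 4 lists, of which 54 of 57 genes were on the array and 53 measured. Between c-Kit+ GFP-high and c-Kit- GFP-low, 25 were at least 2-fold higher and 5 lower (median log2 ratio 0.85). Of all genes, 16.1% were higher and 13.7% lower there. With c-Kit- GFP-middle as the lower end, 6 were higher and 3 lower, beside 4.9% and 6.5% of all genes. For the lists below, the shares of all genes were 3.58% higher and 5.3% lower between the middle gates. They were 6.65% and 5.47% for c-Kit- GFP-middle over c-Kit- GFP-low. Of 11 genes of the telomerase RNA particle and its assembly, 9 were higher between the ends and none lower, with a median of 1.62. Dkc1, the pseudouridine synthase dyskerin that binds telomerase RNA, had 1172 in c-Kit+ GFP-high, 961 in c-Kit+ GFP-middle, 462 in c-Kit- GFP-middle and 226 in c-Kit- GFP-low (5.18-fold between the ends). It was also 2.08-fold higher in c-Kit+ GFP-middle than in c-Kit- GFP-middle, the only gene of its list to pass 2-fold there. Gar1, another protein of the same particle, was 4.64-fold higher between the ends, Ruvbl1, an ATPase of particle assembly, 4.10-fold, and Pinx1, a telomerase inhibitor, 3.08-fold. Those 3 passed 2-fold in c-Kit- GFP-middle over c-Kit- GFP-low too (2.61-fold, 2.40-fold and 2.23-fold), as did Dkc1 (2.04-fold). Least different between the ends were Parn, a poly(A) ribonuclease that matures telomerase RNA (1.35-fold), and Wrap53, which brings telomerase to Cajal bodies (1.26-fold). Dkc1 and its partners also serve ribosomal RNA modification.

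The CST complex, which ends telomerase action and brings in DNA polymerase alpha, had 2 of 3 genes at least 2-fold lower between the ends. Of the genes of that polymerase and its primase, 3 of 4 were higher. Among all genes 13.7% were lower and 16.1% higher. Ctc1 had 303 in c-Kit+ GFP-high, 421 in c-Kit+ GFP-middle, 468 in c-Kit- GFP-middle and 808 in c-Kit- GFP-low, and was 2.66-fold lower between the ends. Stn1 had 2.88, below the floor, in c-Kit+ GFP-high, 15.45, just above it, in c-Kit+ GFP-middle, 61.8 in c-Kit- GFP-middle and 82.2 in c-Kit- GFP-low. It was thus at least 5.36-fold lower between the ends and 4.00-fold lower between the middle gates. Ten1, the smallest subunit, was 1.10-fold higher between the ends. Of the primase and polymerase genes, Prim1 was 7.21-fold higher in c-Kit+ GFP-high than in c-Kit- GFP-low, Pola1 5.38-fold and Prim2 3.32-fold, and Pola2 1.47-fold. The first 3 passed 2-fold in c-Kit- GFP-middle over c-Kit- GFP-low (4.57-fold, 3.58-fold and 2.32-fold) and not in the other steps.

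Of 16 shelterin partners and telomere nucleases, 4 were higher between the ends and 3 lower (median 0.11), beside 16.1% and 13.7% of all genes. Gnl3 was 7.09-fold and its paralog Gnl3l, whose product also binds TRF1, 3.19-fold higher. Gnl3 itself had 1299 in c-Kit+ GFP-high, 1109 in c-Kit+ GFP-middle, 584 in c-Kit- GFP-middle and 183 in c-Kit- GFP-low. Its steps were 1.17-fold for c-Kit+ GFP-high over c-Kit+ GFP-middle, 1.90-fold between the middle gates and 3.19-fold for c-Kit- GFP-middle over c-Kit- GFP-low. Gnl3l had 235 in c-Kit+ GFP-high, 198 in c-Kit+ GFP-middle, 93.9 in c-Kit- GFP-middle and 73.5 in c-Kit- GFP-low, the same order as Terf1 apart from the c-Kit+ pair. It was 2.11-fold higher between the middle gates. Exo1, a 5' exonuclease, was at least 13.2-fold higher between the ends and 2.02-fold higher between the middle gates. Rif1, which limits resection, was 3.08-fold higher between the ends. In c-Kit- GFP-middle over c-Kit- GFP-low Exo1 was at least 4.92-fold and Rif1 2.24-fold higher. On the lower side, Samhd1, a dNTP hydrolase, was 12.0-fold lower between the ends and 3.24-fold lower between the middle gates. In c-Kit- GFP-middle over c-Kit- GFP-low it was 2.14-fold lower. Its signals were 200 in c-Kit+ GFP-high, 346 in c-Kit+ GFP-middle, 1122 in c-Kit- GFP-middle and 2399 in c-Kit- GFP-low. Fbxo4, part of a ubiquitin ligase for TRF1, had 49.2, 72.0, 97.5 and 129 in that order and was 2.62-fold lower, with Terf1 in the opposite order at the ends. The tankyrase genes Tnks and Tnks2, whose products release TRF1 from telomeres, had log2 ratios of 0.08 and -0.17.

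Of 19 helicase and repair genes measured, 9 were higher between the ends and none lower (median 0.97), beside 16.1% and 13.7% of all genes. None passed 2-fold between the middle gates, where 8.89% of all genes did in either direction. Blm, a RecQ helicase, was 4.64-fold higher and Fen1, the flap endonuclease, 4.12-fold, and the RecQ helicase Recql4 2.47-fold, whereas Wrn, a further RecQ helicase, had a log2 ratio of -0.06. Rpa3 (2.86-fold), Nbn (2.65-fold) and Pif1 (2.04-fold) were among the 5 that passed 2-fold in c-Kit- GFP-middle over c-Kit- GFP-low. Lowest were Dna2 (1.92-fold lower between the ends) and Daxx (1.15-fold lower).

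Genes of cell division followed another order, and their values are given because RTEL1, TRF1 and POT1 act at replicating telomeres. Of 17 cell division genes, all were 2-fold higher in c-Kit+ GFP-high than in c-Kit- GFP-low (median 2.95) and in c-Kit- GFP-middle than in c-Kit- GFP-low (2.40), but none in c-Kit+ GFP-middle over c-Kit- GFP-middle (-0.07). Of all genes, 16.1%, 6.65% and 3.58% were 2-fold higher in these comparisons in turn. In c-Kit+ GFP-high over c-Kit+ GFP-middle all 17 had a ratio above 0 (median 0.70), beside 5863 of all 11010 genes measured. There 2 passed 2-fold, beside 1.01% of all genes. That step was the largest for 1431332_a_at and 1443527_at of Terf1 and for 1456729_x_at of Rtel1. Of 21 DNA replication genes, 20 were higher between the ends, 19 in c-Kit- GFP-middle over c-Kit- GFP-low (median 1.47) and none between the middle gates (0.31). For Terf1 and Rtel1 by their brightest probe sets, and for Pot1a, the step between the middle gates was instead the largest of the 3 steps (1.29, 0.90 and 0.79). Whether these orders differ beyond the spread between sorts cannot be tested with 1 array per fraction, and the part of cell division in the telomere gene values was not tested.

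**Figure D3:**
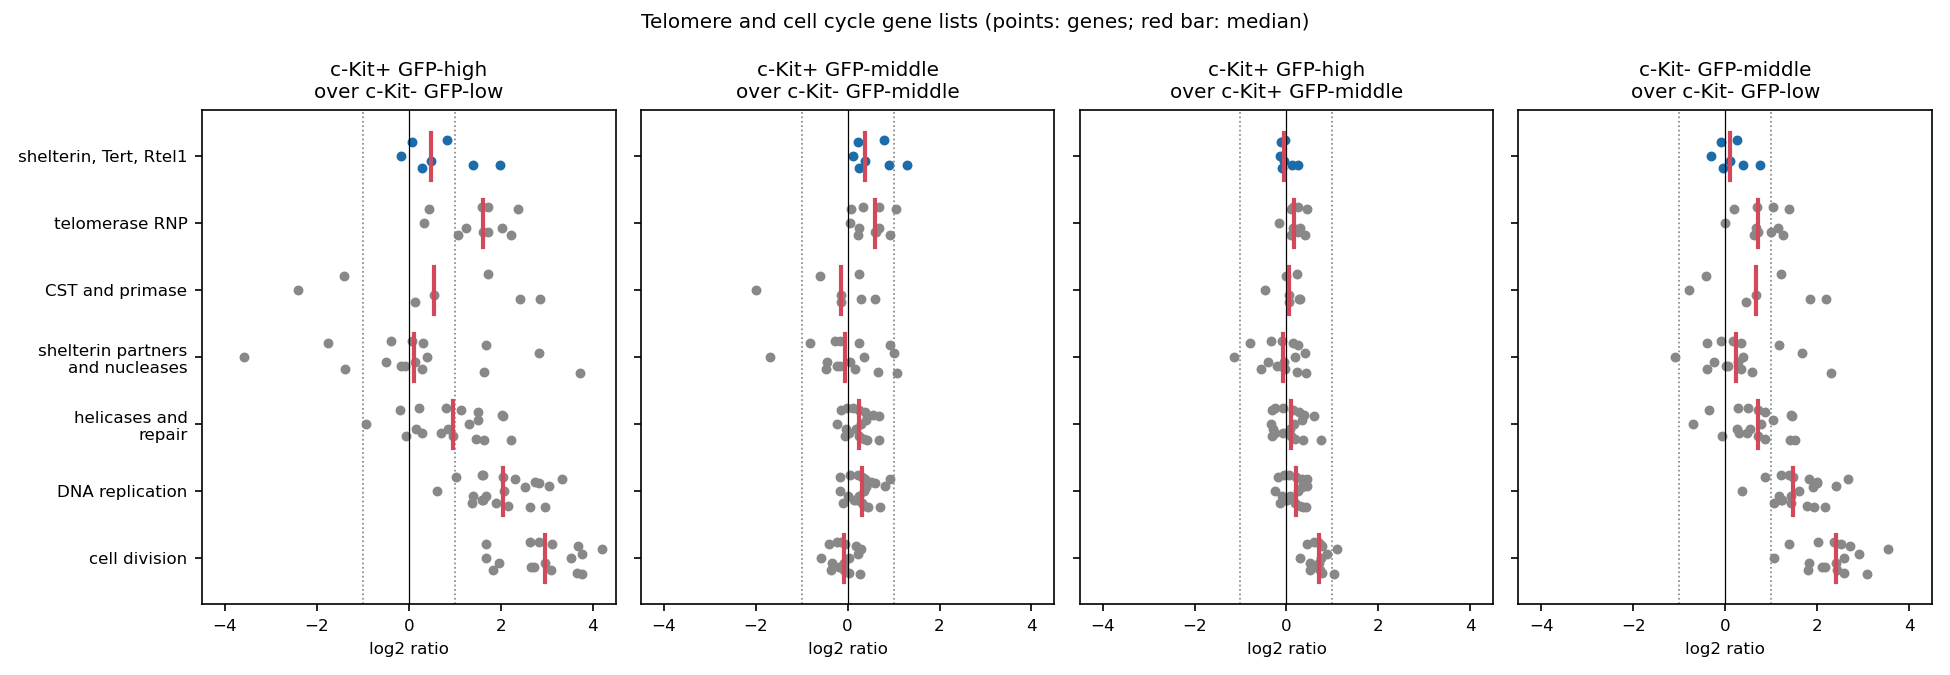
Log2 ratios of the genes of each list in the 4 comparisons. Points are genes (blue for the shelterin genes, Tert and Rtel1, left out where both arrays were at the floor), red bars are list medians, dotted lines mark 2-fold, and a gene at the floor on 1 array is drawn at its bound. Cell division genes lie near 0 between the middle gates (median -0.07) and at 2.40 for c-Kit- GFP-middle over c-Kit- GFP-low, while the 7 measured shelterin and helicase genes have medians of 0.37 and 0.09.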

How the data were processed

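RNA of 4 sorted fractions was measured on 1 Affymetrix mouse array each. Per the labels' protocols, it was extracted with TRIzol and biotin-labelled by the standard Affymetrix method. The submitters' processing notes name GCOS 1.2, MAS5 and R 3.0.2 without roles. The authors deposited the intensity of 45101 probe sets on a linear scale, whose tool is not given, and, for 17419 of them, log2 values. In each array these differ from the log2 of the intensity by a constant (0.44 for c-Kit+ GFP-high, 0.49 for c-Kit+ GFP-middle, 0.65 for c-Kit- GFP-middle and 0.42 for c-Kit- GFP-low).

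From the first table, 45037 probe sets that are not controls were quantile normalized (Python 3.11.15, numpy 2.4.6, pandas 2.3.3), floored at the 50th percentile, and taken to log2. The annotation names 1 gene for 34945, of which 34741 were matched by gene ID to current symbols. Each gene was read from its brightest probe set. For Ctc1, Gar1, Parn, Rif1 and Fen1 this has an _s or _x suffix. The steps were tested on simulated data, with planted changes larger than 2-fold in probe sets well above the floor. That simulation did not cover smaller changes or signals near the floor. No test was possible, and the number of arrays limits the precision.

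Named besides the members were, per telomere list, the 2 highest and 2 lowest genes between the ends among those above the floor on both arrays, and any past 2-fold between adjacent fractions. Where other genes appear (Tnks, Tnks2, Wrn, Recql4, Xrcc5, Pola2, Mpo, Cd33), they were chosen after their values were seen. The members and lists were chosen with earlier results of these data known. Alternatives covered scaling, floor, probe set, fold and the c-Kit- GFP-low array.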

Additional observations from a re-analysis of the deposited data

Results flagged for a closer look

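Atm, the DNA break kinase that acts when telomeres lose their cover, moved in opposite directions with the NS-GFP gate in c-Kit+ and c-Kit- cells, each beyond the probe set SD. Its log2 ratio was -0.31 for c-Kit+ GFP-high over c-Kit+ GFP-middle and 0.77 for c-Kit- GFP-middle over c-Kit- GFP-low, a difference of -1.08 between the contrasts. The c-Kit+ ratio was only just beyond its probe set SD of 0.30. Atm was the only gene flagged among the members and the other telomere genes. The contrasts are also different steps of the gate, high over middle and middle over low. With 1 array per fraction the difference between them was not tested.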

How the results depend on the processing

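No paired analysis was possible because each fraction has 1 array and the labels carry no replicate numbers. No replicate could be left out for the same reason. Of 217 log2 ratios of the 7 measured members under 8 alternatives, 202 moved by less than the probe set SD and 14 by more. The remaining one was a 2-fold difference that turned sign, Rtel1 between the ends with plain _at probe sets (-0.15). Of the 28 member ratios, 10 changed sign under some alternative, the other 9 being under 2-fold with the brightest probe set. Among these, Rtel1 was -1.04 for c-Kit+ GFP-high over c-Kit+ GFP-middle and -0.15 for c-Kit- GFP-middle over c-Kit- GFP-low with plain _at probe sets, and Terf1 was 0.37 for c-Kit+ GFP-high over c-Kit+ GFP-middle with the mean of probe sets. Between the ends the count of 2 members at least 2-fold apart became 1 with plain _at probe sets. It became 3 with the floor at the 25th percentile, 3 without a floor and 3 at 1.5-fold. The count was 0 with the floor at the 75th percentile, which lies above the c-Kit- GFP-low signals of Terf1 and Rtel1. Between the middle gates the count was 1, but 2 with the deposited signals, 2 with plain _at probe sets, 3 at 1.5-fold, and 0 with the floor at the 75th percentile or the mean of probe sets. For c-Kit+ GFP-high over c-Kit+ GFP-middle the count of 0 became 1 with the floor at the 25th percentile (Tert) and 1 with plain _at probe sets (Rtel1). For c-Kit- GFP-middle over c-Kit- GFP-low it became 1 without a floor (Tert) and 1 at 1.5-fold (Terf1).

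For the other telomere genes, 30 between the ends became 9 with c-Kit- GFP-middle as the lower end, beside 29.8% and 11.4% of all genes in either direction. At the main settings this share was 8.89% between the middle gates and 2.02% for c-Kit+ GFP-high over c-Kit+ GFP-middle. For c-Kit- GFP-middle over c-Kit- GFP-low it was 12.1%. The 5 between the middle gates became 3 with the second deposited table, 3 with the floor at the 75th percentile, 2 with the mean of probe sets and 17 at 1.5-fold. For c-Kit+ GFP-high over c-Kit+ GFP-middle the count of 1 became 0 with the second deposited table, 0 with the floor at the 75th percentile, 2 with it at the 25th, 3 without a floor, 2 with plain _at probe sets and 4 at 1.5-fold. For c-Kit- GFP-middle over c-Kit- GFP-low 16 became 29 at 1.5-fold. Where no construction of the alternative shows it, the cause was not tested.

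Scaling moved all genes. With the deposited signals the median log2 ratio of all genes was -0.05 between the ends (0.09 after quantile normalization), 0.16 between the middle gates (0.02) and -0.25 for c-Kit- GFP-middle over c-Kit- GFP-low (0.03). The share of higher genes among those past 2-fold was then 43.2% between the ends (54.1% after quantile normalization), 56.6% between the middle gates (40.3%), 38.9% for c-Kit+ GFP-high over c-Kit+ GFP-middle (50%) and 24.2% for c-Kit- GFP-middle over c-Kit- GFP-low (54.9%). For c-Kit+ GFP-high over c-Kit+ GFP-middle it was 20.9% with the second deposited table and 33.3% with trimmed mean scaling. Signals near the floor (Tert, Pot1b, Stn1) limit those genes to bounds.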
